A study of Bos taurus with 29 samples.

Results

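The genes described here encode the subunits, regulators and assembly factors of the proteasome in cattle skin with and without digital dermatitis, an infectious disease of the skin around the hoof. They were taken as every gene listed in all 5 deposited tables whose symbol starts with PSM, a letter from A to G and a number, which gave 47 of 10629 genes. One of these, PSMC3IP, encodes a protein of meiotic recombination and no proteasome subunit, so it was counted apart and the counts below run over 46 proteasome genes. No symbol of this form was listed in some tables only. All 47 passed the filter on low counts, which kept 10371 genes, and 41 had at least 10 counts in every library.

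The study took biopsies from Holstein-Friesian cattle and sequenced the 3′ ends of messenger RNA, with 29 libraries in 6 groups. The control group M0 (5 libraries) is skin from above the interdigital cleft, and the lesion groups M1, M2, M3 and M4 (5 libraries each) and M4.1 (4 libraries) are skin from the lesion. In the M-stage score used for this disease, M1 is an early small lesion, M2 an acute ulcer, M3 a healing lesion, M4 a chronic thickened lesion and M4.1 a chronic lesion with a small new active area. Per the design text, 22 lesion samples came from 6 farms, while the 5 M0 samples and 2 M1 samples were collected from a slaughterhouse after death. Labels give no treatment, age, farm or animal, and do not say which M1 samples came from the slaughterhouse. Disease therefore cannot be told apart from body site, and in most comparisons not from the place of collection. The p-values measure the spread between these samples, since the labels do not say that each came from another animal.

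The proteasome degrades proteins tagged with ubiquitin. Its core is a barrel of outer alpha rings and inner beta rings, and 3 beta subunits, PSMB5, PSMB6 and PSMB7, cut the protein chain. A regulatory particle with a ring of ATPases (PSMC genes) and further subunits (most PSMD genes) caps the barrel, binds ubiquitin chains and unfolds the substrate. Assembly chaperones (PSMG genes and some PSMD genes) build these parts and do not stay in them. In immune cells, and in other cells under interferon, PSMB8, PSMB9 and PSMB10 take the places of PSMB5, PSMB6 and PSMB7, and PSME1 and PSME2 form another cap. This immunoproteasome changes the peptides that reach MHC class I molecules on the cell surface. In skin, keratinocytes and leukocytes both use proteasomes.

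Libraries held 2858186 to 5399615 counts in the listed genes. Levels are given in CPM (reads per gene relative to the library total), after scaling of the totals with TMM (trimmed mean of M-values) factors. The words rose and fell mark genes that were called, with an adjusted p under 0.05 in the quasi-likelihood test of edgeR over 10371 genes and the adjustment of Benjamini and Hochberg. Fold changes are on the log2 scale with an approximate standard error after the ± sign. All 5 lesion groups were compared with the same M0 libraries, so the comparisons with M0 are not independent of each other. In the comparisons with M0, 20.2 to 21.9 percent of all genes tested rose and 18.9 to 21.1 percent fell. Keratinocyte markers marked the tissue as skin in every group, and 5 to 7 of 10 rose in each lesion group. Their summed level was 33702 to 50953 CPM in M0, 34413 to 92071 in M1, 36674 to 107725 in M2, 46484 to 213839 in M3, 84126 to 280318 in M4 and 33927 to 71319.9 in M4.1, and the lesion groups other than M4 overlapped M0. KRT1 and KRT10 had lower means in M1, M2 and M4.1, though no keratinocyte marker was called lower. Mean KRT1 was 16286 CPM in M0 and 8496, 7291 and 4033 CPM in these stages. Mean KRT10 was 13354 CPM in M0 and 9102, 8007 and 4946 CPM there. Hair follicle and gland markers fell in every lesion group, 13 of 13 measured, from a summed 4033 to 5370.4 CPM in M0 to 4.99 to 86.7 in M1, 3.09 to 336 in M2, 2.77 to 215 in M3, 0.799 to 9.295 in M4 and 8.06 to 538 in M4.1. MUCL1, a gland marker, was at 0 in the mean of M4 and of M4.1. The part of these cell types in the results below was not tested. In bulk tissue, fewer cells of a type and less RNA per cell cannot be told apart.

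In lesions, a set of proteasome genes rose and few fell. The genes that rose came from the assembly chaperones, the alpha ring, the catalytic gene PSMB6, the regulatory particle and the nuclear activator PSME3, and of the immunoproteasome genes PSME1 rose in M1. In M1, 16 of the 46 genes rose and 1 fell, where 21.9 percent of all genes tested rose and 21.1 percent fell. In M2, 14 rose and 1 fell, against 21.7 and 20.5 percent of all genes. In M3, 16 rose and 2 fell, against 20.4 and 19 percent. In M4, 14 rose and 5 fell, against 21.3 and 21.1 percent. In M4.1, 13 rose and 2 fell, against 20.2 and 18.9 percent. The share of proteasome genes that rose was 28.3 to 34.8 percent, above the share of all genes, and the share that fell, 2.17 to 10.9 percent, was below it. The distance of the risen share from that of all genes depended on single libraries. Without M0 replicate 4, 8 proteasome genes (17.4 percent) rose in M3 against 17.6 percent of all genes, and 10 (21.7 percent) rose in M1 against 19.6 percent. Without M3 replicate 3, 9 (19.6 percent) rose in M3 against 17.6 percent, and without M1 replicate 1, 10 (21.7 percent) rose in M1 against 19.7 percent. In M2, 10 (21.7 percent) rose without M0 replicate 1, against 19.6 percent. In M4.1, 9 (19.6 percent) rose without M0 replicate 5, against 18.3 percent.

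Most changes were small. The median log2 fold change of the 46 genes was 0.26 in M1, 0.19 in M2, 0.20 in M3, 0.14 in M4 and 0.20 in M4.1, and that of all genes tested lay between -0.025 and -0.0037. Taken library by library, the median difference of the 46 genes from their M0 mean ran from 0.066 to 0.34 in M1, 0.12 to 0.31 in M2, 0.026 to 0.41 in M3, 0.058 to 0.28 in M4 and 0.13 to 0.26 in M4.1. The M0 libraries themselves ran from -0.066 to 0.043. Only the lowest M3 library lay within the range of the M0 libraries, and the median over all genes stayed between -0.065 and 0.020 in every library. Counting genes whose stage and M0 libraries did not overlap, 9 were higher in M1, 12 in M2, 10 in M3, 14 in M4 and 15 in M4.1, where 14.8, 15.8, 12.6, 14.4 and 17.5 percent of all genes were. In the other direction these counts were 1, 1, 1, 2 and 2 genes, against 15.4, 14.9, 13.2, 15.1 and 18.3 percent.

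**Figure D1:**
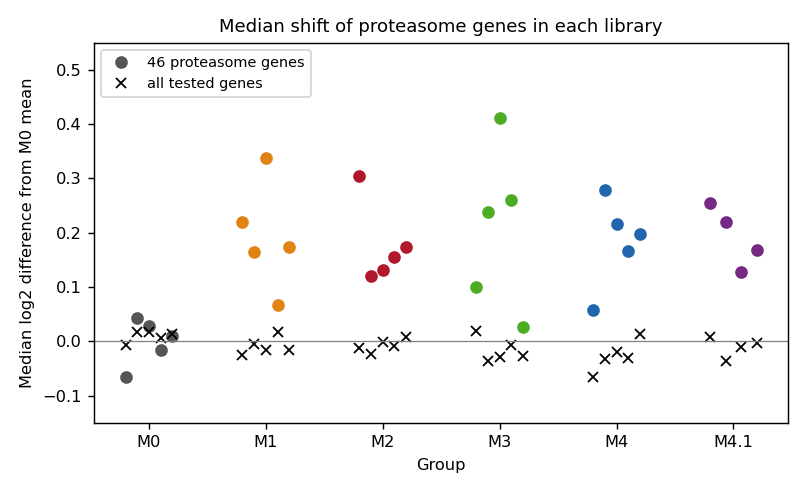
Median difference from the M0 mean, on the log2(CPM + 0.5) scale, of the 46 proteasome genes and of all 10371 genes tested, with 1 point per library and the libraries ordered by group. The proteasome medians of 23 of the 24 lesion libraries lie above the highest M0 library at 0.043, while the medians of all genes stay near 0.

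**Figure D2:**
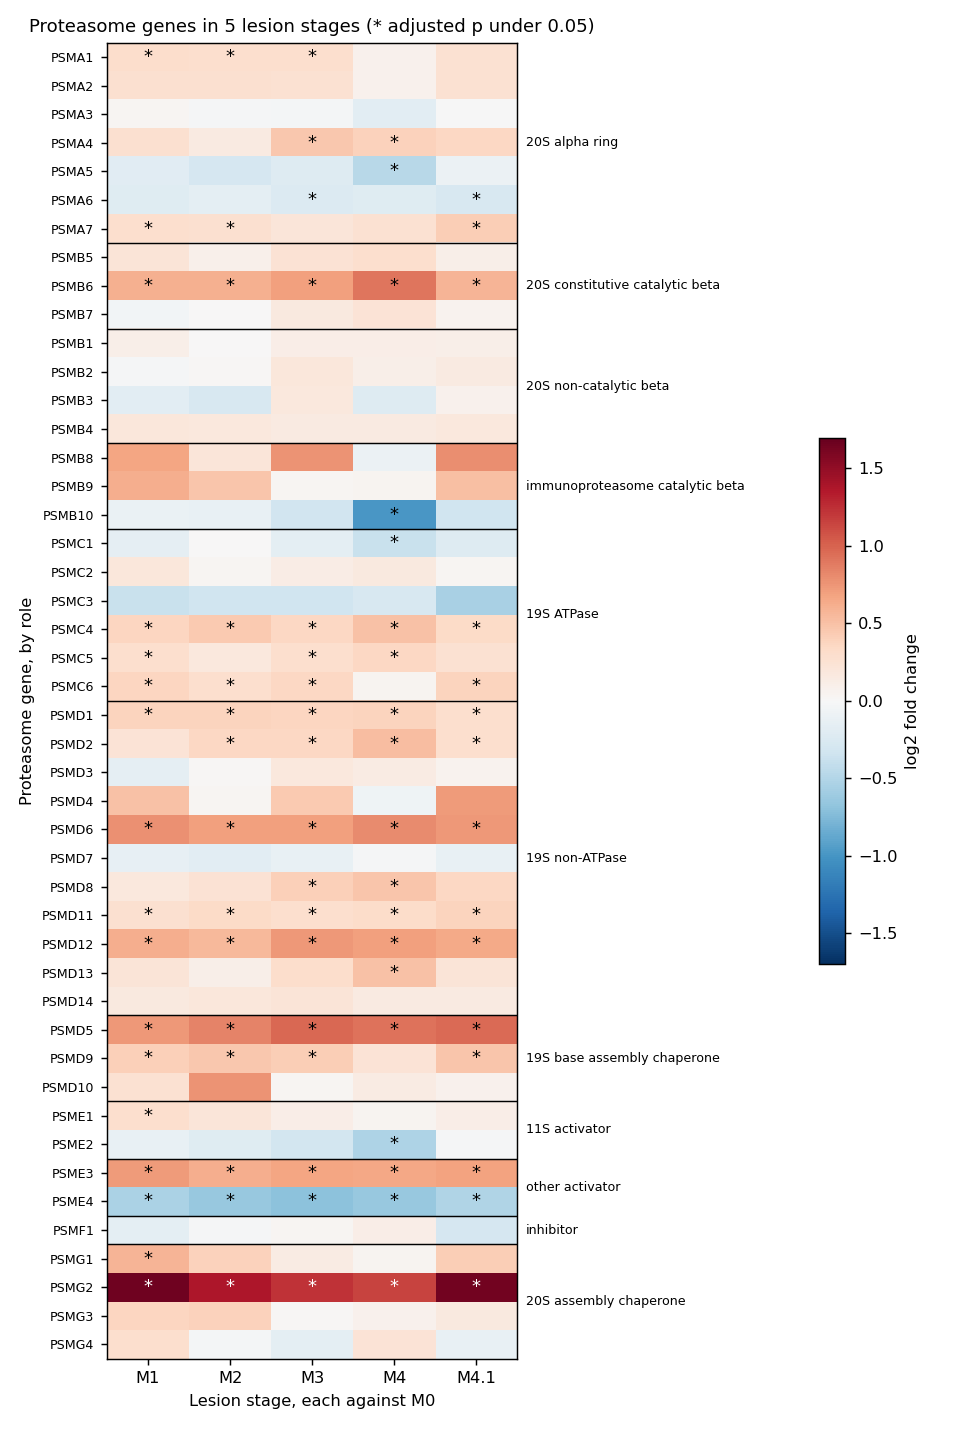
Log2 fold change against M0 of the 46 proteasome genes (rows, ordered by role) in the 5 lesion groups (columns), with an asterisk where the gene was called. Rises recur in the same rows across columns, with PSMG2 the strongest, and PSME4 is the only row called lower in all 5.

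Among the assembly chaperones of the core, PSMG2 rose most. It encodes a chaperone that pairs with the PSMG1 protein and guides the assembly of the alpha ring. PSMG2 (ENSBTAG00000010552) was measured at 19.7, 26.3, 21.8, 26.5 and 24.5 CPM in the M0 libraries. In the lesions it stood at 86.96, 74.1, 69.4, 53.6 and 88.8 CPM in M1, 73.7, 59.7, 61.9, 67.1 and 45.9 in M2 and 63.96, 56.2, 78.3, 47.1 and 30.9 in M3. The later lesions held 42.7, 75.7, 44.3, 52.6 and 48.4 CPM in M4 and 72.4, 75.1, 72.8 and 77.4 in M4.1. All lesion libraries lay above all M0 libraries, and the lowest was an M3 library at 30.9 CPM. The log2 fold changes were 1.65 ± 0.19 in M1, 1.38 ± 0.19 in M2, 1.23 ± 0.19 in M3, 1.15 ± 0.19 in M4 and 1.64 ± 0.20 in M4.1, which are 3.14, 2.59, 2.34, 2.22 and 3.13-fold. PSMG2 was the only member to pass a test against a fold change of 1.5 in all 5 stages, with edgeR adjusted p of 1.08e-05 in M1 and 0.00513 in M4.

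PSMG1, its partner, rose in M1 only, by 0.58 ± 0.18, with adjusted p = 0.0101 in the edgeR test, and the M1 libraries (49.9, 37.5, 37.3, 45.1 and 60.8 CPM) lay above the M0 libraries (32.2, 23.7, 30.7, 31.95 and 35.4 CPM). In the other stages PSMG1 differed from M0 by 0.40 ± 0.18 in M2, 0.14 ± 0.18 in M3, 0.046 ± 0.18 in M4 and 0.41 ± 0.19 in M4.1 and was not called. PSMG3 and PSMG4, which form the other chaperone pair of the alpha ring, were called in no stage, with log2 fold changes of -0.16 to 0.39. The difference between the changes of PSMG2 and PSMG1 was not tested.

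Genes of the alpha ring, which gates the entry to the core, changed little and in both directions. Of the 7 genes, 2 in M1, 2 in M2, 2 in M3, 1 in M4 and 1 in M4.1 rose, and 0 in M1, 0 in M2, 1 in M3, 1 in M4 and 1 in M4.1 fell. In these comparisons 20.2 to 21.9 percent of all genes rose and 18.9 to 21.1 percent fell. PSMA7 rose in M1, M2 and M4.1, by 0.29 ± 0.11 in M1, 0.28 ± 0.11 in M2 and 0.42 ± 0.11 in M4.1, from 511 ± 34.8 CPM in M0 (mean ± SD, n = 5) to 683 ± 56.1 CPM in M4.1 (n = 4). PSMA1 rose by 0.30 ± 0.11 in M1, 0.29 ± 0.11 in M2 and 0.29 ± 0.11 in M3, and PSMA4 by 0.45 ± 0.16 in M3 and 0.39 ± 0.16 in M4. PSMA5 fell in M4 by 0.47 on the log2 scale (standard error 0.16, edgeR adjusted p = 0.0155), from 78.4 ± 12.4 to 56.4 ± 9.82 CPM (n = 5 each), and the groups overlapped. PSMA6 fell in M3 by 0.23 and in M4.1 by 0.27. Of these 11 calls, only PSMA7 in M4.1 and PSMA5 in M4 held when any 1 library was left out, and the others were each lost in 4 to 8 such fits. PSMA3 was called in no stage. PSMA2 was called by edgeR in no stage, but was called higher in M2 with limma-voom or the compared groups alone, and in M1, M3 and M4.1 without 1 library each.

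PSMB6, the catalytic beta subunit with caspase-like activity, rose in every lesion group. PSMB6 (ENSBTAG00000013390) stood at 153, 139, 173, 148 and 149 CPM in the M0 libraries. It was measured at 232, 225, 261, 228 and 209 CPM in M1, 215, 238, 205, 243 and 254 in M2 and 188, 257, 277, 256 and 255 in M3. The libraries of the chronic stages gave 298, 269, 292, 294 and 274 CPM in M4 and 221, 276, 205 and 204 in M4.1. All lesion libraries exceeded all M0 libraries, and 1 M3 library at 188 CPM was well below the other M3 libraries. The log2 fold changes were 0.60 ± 0.11 in M1, 0.60 ± 0.11 in M2, 0.70 ± 0.11 in M3, 0.91 ± 0.11 in M4 and 0.57 ± 0.11 in M4.1, with edgeR adjusted p of 5.54e-05 in M1, 5.80e-05 in M2, 9.66e-06 in M3, 1.63e-07 in M4 and 2.21e-04 in M4.1. In M4 the change also passed the test against a fold change of 1.5, with adjusted p = 0.00525.

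The other catalytic genes of the constitutive core were called in no stage. PSMB5 (chymotrypsin-like activity) differed from M0 by 0.22 ± 0.13 in M1, 0.090 ± 0.13 in M2, 0.25 ± 0.13 in M3, 0.28 ± 0.13 in M4 and 0.10 ± 0.14 in M4.1. PSMB7 (trypsin-like activity) differed by -0.044 ± 0.15 in M1, 0.0091 ± 0.15 in M2, 0.16 ± 0.15 in M3, 0.23 ± 0.15 in M4 and 0.054 ± 0.16 in M4.1. Without M0 replicate 5, PSMB5 was called higher in M4. The non-catalytic beta genes PSMB1, PSMB2, PSMB3 and PSMB4, which complete the beta rings, were called in no stage, with log2 fold changes of -0.27 to 0.20. At an unadjusted p, edgeR gave 1 of these 4 a value under 0.05 in M1, which was PSMB4, and DESeq2 called none lower.

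The ATPases of the regulatory particle, which unfold the substrate and feed it into the core, rose in part. Of 6 genes, 3 in M1, 2 in M2, 3 in M3, 2 in M4 and 2 in M4.1 rose, and 0 in M1, 0 in M2, 0 in M3, 1 in M4 and 0 in M4.1 fell. Among all genes tested, 20.2 to 21.9 percent rose and 18.9 to 21.1 percent fell. PSMC4 rose in all 5 stages, by 0.36 ± 0.12 in M1, 0.45 ± 0.12 in M2, 0.36 ± 0.12 in M3, 0.49 ± 0.12 in M4 and 0.32 ± 0.12 in M4.1. Its M0 libraries held 109, 123, 110.2, 110.5 and 124 CPM and its M4 libraries 185, 157, 143, 182 and 144 CPM, with no overlap. PSMC6 rose by 0.37 ± 0.10 in M1, 0.28 ± 0.10 in M2, 0.35 ± 0.10 in M3 and 0.38 ± 0.11 in M4.1, and stood near M0 in M4 (0.051 ± 0.10, edgeR adjusted p = 0.721). PSMC5 rose by 0.29 ± 0.11 in M1, 0.29 ± 0.11 in M3 and 0.35 ± 0.11 in M4. PSMC1 fell by 0.38 in M4 (edgeR adjusted p = 0.0488), a call lost in 5 of 10 fits with 1 library left out and in the fit with no filter on low counts. PSMC2 was called in no stage. PSMC3 was not called by edgeR in M4.1 (-0.56 ± 0.24, adjusted p = 0.0611) or in any other stage, but DESeq2 called it lower in M4.1 (-0.59, adjusted p = 0.0381). It was also called lower there with RLE size factors, a minimum of 10 counts, the compared groups alone, the replicate block, and without M0 replicate 1 or M4.1 replicate 1. Leaving out M0 replicate 1, M0 replicate 4 or M3 replicate 3 ended the call of PSMC4 in M3, and 8 of 9 libraries each ended it in M4.1.

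The remaining subunits of the regulatory particle, the scaffold and ubiquitin-binding PSMD genes, were the largest role, with 11 genes. Of these, 4 in M1, 5 in M2, 6 in M3, 7 in M4 and 5 in M4.1 rose, and edgeR called none lower. Their risen share was 36.4 percent in M1, 45.5 in M2, 54.5 in M3, 63.6 in M4 and 45.5 in M4.1. In the same order, 21.9, 21.7, 20.4, 21.3 and 20.2 percent of all genes rose. The 3 chaperones that assemble the base had a higher share, 66.7 percent, in M1, M2, M3 and M4.1. PSMD7 in M2 had the only lower value at an unadjusted p under 0.05 in edgeR, and DESeq2 called it (-0.22, adjusted p = 0.0166). PSMD6 and PSMD12, both of the lid that holds the ubiquitin-removing enzyme, rose in all stages.

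PSMD6 (ENSBTAG00000015112) was measured at 62.4, 73.3, 72.2, 67.8 and 81.2 CPM in the M0 libraries. The first lesion groups stood at 113, 120.4, 139.5, 125 and 114 CPM in M1, 116, 128, 113, 113 and 109 in M2 and 109.8, 130.2, 127, 118 and 93.7 in M3. For the chronic stages the values were 124, 129, 109, 135 and 127 CPM in M4 and 106, 134, 120.4 and 115 in M4.1. The M0 libraries lay below every lesion library. Log2 fold changes of PSMD6 were 0.78 ± 0.10 in M1, 0.70 ± 0.10 in M2, 0.70 ± 0.10 in M3, 0.81 ± 0.10 in M4 and 0.74 ± 0.11 in M4.1, with edgeR adjusted p between 3.91e-07 and 4.34e-06. PSMD6 also passed the test against a fold change of 1.5 in M1 (adjusted p = 0.0479) and M4 (adjusted p = 0.0272).

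PSMD12 (ENSBTAG00000002423) held 26.3, 32.2, 31.3, 26.1 and 32.7 CPM in the M0 libraries. Values in the lesions were 43.5, 46.1, 45.7, 43.2 and 49.1 CPM in M1, 47.8, 46.01, 36.6, 39.8 and 47.8 in M2 and 43.7, 48.9, 60.9, 57.5 and 36.5 in M3. Chronic lesions held 47.1, 49.9, 45.6, 51.5 and 46.4 CPM in M4 and 55.2, 49.5, 40.8 and 41.3 in M4.1. Again no lesion library reached down to M0. The log2 fold changes of PSMD12 were 0.62 ± 0.12 in M1, 0.55 ± 0.12 in M2, 0.74 ± 0.12 in M3, 0.69 ± 0.12 in M4 and 0.65 ± 0.13 in M4.1, with edgeR adjusted p between 3.01e-05 and 7.02e-04.

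Smaller rises were shared by other PSMD genes. PSMD1, a large scaffold of the base, rose by 0.37 ± 0.099 in M1, 0.37 ± 0.099 in M2, 0.37 ± 0.099 in M3, 0.38 ± 0.099 in M4 and 0.28 ± 0.10 in M4.1, and PSMD11, a lid subunit that braces the particle against the core, by 0.28 ± 0.096 in M1, 0.33 ± 0.096 in M2, 0.29 ± 0.096 in M3, 0.31 ± 0.096 in M4 and 0.37 ± 0.10 in M4.1. For both, every lesion library lay above the highest M0 library, at 371 CPM for PSMD1 and 145 CPM for PSMD11. PSMD2, which binds ubiquitin-like proteins, rose by 0.35 ± 0.11 in M2, 0.35 ± 0.11 in M3, 0.52 ± 0.11 in M4 and 0.29 ± 0.11 in M4.1. PSMD8 rose in M3 and M4 (0.41 ± 0.14 and 0.48 ± 0.14) and PSMD13 in M4 (0.49 ± 0.14), both of the lid. Single libraries ended some of these calls. The call of PSMD2 in M2 was lost without M2 replicate 3, and those of PSMD2 and PSMD11 in M3 without M0 replicate 4 or M3 replicate 3. In M4.1, 6 of 9 libraries each ended the calls of PSMD1 and PSMD2, and 4 of 10 each ended PSMD8 in M3 and PSMD11 in M1.

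PSMD3, PSMD4, PSMD7 and PSMD14 were called by edgeR in no stage. PSMD14 encodes the enzyme that removes ubiquitin before degradation, and it differed from M0 by 0.16 ± 0.13 in M1, 0.20 ± 0.13 in M2, 0.21 ± 0.13 in M3, 0.16 ± 0.13 in M4 and 0.15 ± 0.14 in M4.1. PSMD7, its partner, differed by -0.14 in M1, -0.18 in M2, -0.13 in M3, -0.016 in M4 and -0.13 in M4.1, lower in all 5 stages but not called. PSMD4, a ubiquitin receptor, was measured at 0.3 to 2.9 CPM in single libraries, too few counts to show any but a large change. Its 95 percent interval in M1 ran from -0.32 to 1.33.

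Chaperones that assemble the base of the regulatory particle rose in 4 or 5 stages for PSMD9 and PSMD5. PSMD5 binds an ATPase during assembly and leaves before the particle is complete. PSMD5 (ENSBTAG00000016952) was measured at 12.8, 16.4, 14.7, 12.8 and 13.1 CPM in the M0 libraries. In order of group the lesions held 27.9, 31.3, 20.8, 13.6 and 21.9 CPM in M1, 24.6, 24.5, 14.7, 24.4 and 37.8 in M2 and 30.5, 27.03, 26.3, 25.8 and 27.7 in M3. The chronic stages held 32.7, 25.5, 33.8, 22.7 and 18.1 CPM in M4 and 32.4, 32.1, 21.7 and 22.9 in M4.1. Single M1 and M2 libraries reached into the M0 range, and the libraries of M3, M4 and M4.1 did not. PSMD5 rose by 0.73 ± 0.21 in M1, 0.85 ± 0.21 in M2, 0.98 ± 0.21 in M3, 0.92 ± 0.21 in M4 and 0.96 ± 0.22 in M4.1, with edgeR adjusted p of 0.00625 in M1, 0.00197 in M2, 5.91e-04 in M3, 9.40e-04 in M4 and 0.00107 in M4.1. PSMD9 rose by 0.40 ± 0.16 in M1, 0.46 ± 0.16 in M2, 0.42 ± 0.16 in M3 and 0.47 ± 0.17 in M4.1, with overlapping groups, and each of these calls was lost in 5 to 7 fits with 1 library left out. PSMD10 (gankyrin) was measured at 0 to 4.2 CPM and was not called.

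PSME3 and PSME4, activators that cap the core without the ATPase ring, moved in opposite directions. PSME3 forms a nuclear cap that opens the core to substrates without ubiquitin. PSME3 (ENSBTAG00000019918) stood at 49.6, 65.6, 62.1, 55.02 and 47.2 CPM in the M0 libraries. The lesion groups gave 86.4, 93.4, 89.4, 85.1 and 105 CPM in M1, 92.8, 90.6, 90.01, 81.9 and 74.4 in M2 and 72.2, 86.3, 109, 98.4 and 78.5 in M3. The chronic groups gave 83.1, 96.4, 90.3, 90.7 and 81.5 CPM in M4 and 83.8, 99.1, 86.1 and 91.2 in M4.1. All lesion libraries were higher than all M0 libraries. PSME3 rose by 0.72 ± 0.11 in M1, 0.62 ± 0.11 in M2, 0.67 ± 0.11 in M3, 0.66 ± 0.11 in M4 and 0.69 ± 0.12 in M4.1, with edgeR adjusted p between 1.04e-05 and 7.18e-05.

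PSME4 encodes a large cap known from chromatin, where it takes part in the degradation of acetylated histones. PSME4 (ENSBTAG00000020262) was measured at 37.01, 35.9, 32.8, 36.6 and 40.1 CPM in the M0 libraries. Lesion values were 24.7, 29.6, 17.5, 24.9 and 28.9 CPM in M1, 21.3, 26.8, 25.99, 17.4 and 24.8 in M2 and 22.7, 21.6, 28.7, 16.9 and 21.7 in M3. Those of the chronic groups were 21.2, 23.7, 21.3, 26.98 and 23.2 CPM in M4 and 25.7, 24.9, 28.9 and 22.3 in M4.1. All lesion libraries were lower than all M0 libraries. Its log2 fold changes were -0.53 ± 0.14 in M1, -0.65 ± 0.14 in M2, -0.70 ± 0.15 in M3, -0.64 ± 0.14 in M4 and -0.52 ± 0.15 in M4.1, with edgeR adjusted p of 0.00342 in M1, 5.93e-04 in M2, 3.38e-04 in M3, 7.18e-04 in M4 and 0.00826 in M4.1. PSME4 was the only proteasome gene that fell in all 5 stages. PSMF1, an inhibitor of the core in a test tube, was called in no stage (-0.17 in M1, -0.022 in M2, 0.039 in M3, 0.11 in M4 and -0.28 in M4.1).

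**Figure D3:**
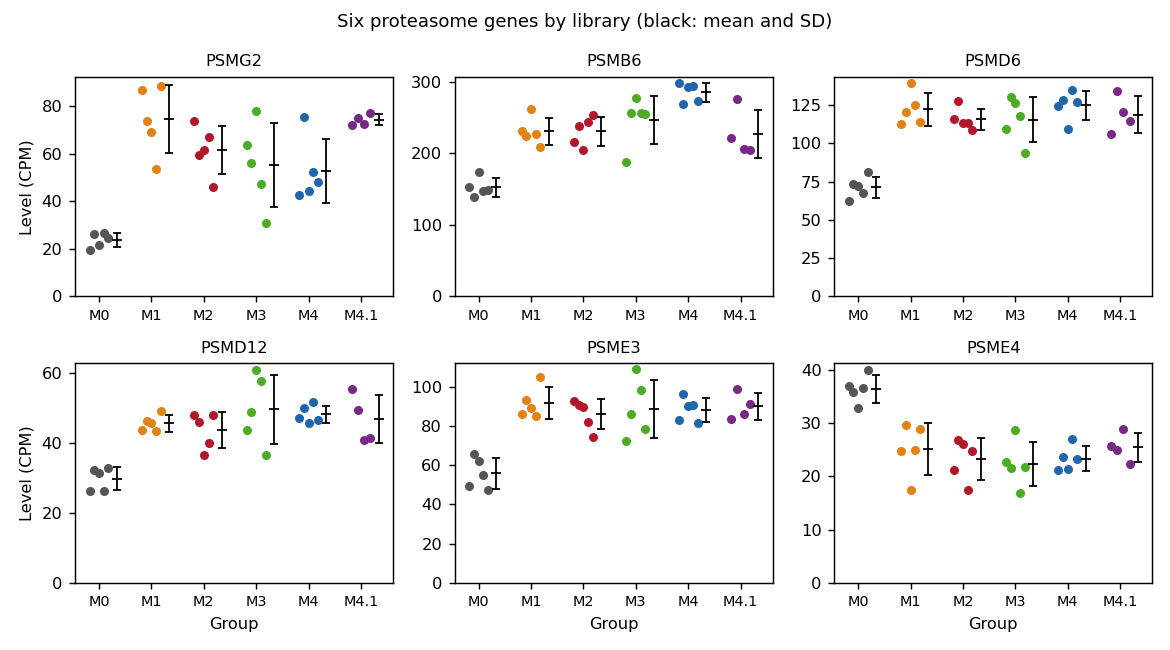
CPM per library (points), with group mean and SD (bars), of PSMG2, PSMB6, PSMD6, PSMD12, PSME3 and PSME4 in the 6 groups (n = 5, and 4 in M4.1). In each panel the M0 points lie apart from all lesion points, below them in all panels but PSME4, where the M0 range of 32.8 to 40.1 CPM lies above.

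Calls in all 5 stages held whichever single library was left out for 7 genes, namely PSMG2, PSMB6, PSMD6, PSMD12, PSMD5, PSME3 and PSME4. Of 84 calls over the 5 comparisons with M0, 55 held in every such fit and 29 were lost in at least 1.

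The immunoproteasome genes showed no common rise in lesions. Of their 5 genes only PSME1 in M1 was called higher, while PSMB10 and PSME2 were called lower in M4. The catalytic genes PSMB8 and PSMB10 had low counts, which limits what these libraries can show.

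PSMB8 replaces PSMB5 in the immunoproteasome. PSMB8 (ENSBTAG00000003039) gave 3.89, 2.29, 1.45, 1.96 and 1.97 CPM in the M0 libraries. Lesions gave 2.95, 4.12, 2.57, 5.04 and 3.99 CPM in M1, 3.09, 1.95, 2.17, 3.81 and 2.42 in M2 and 6.27, 3.003, 4.35, 4.79 and 0.923 in M3. Of the chronic stages, the libraries gave 1.997, 1.802, 3.61, 1.36 and 2.26 CPM in M4 and 4.13, 1.35, 5.51 and 5.301 in M4.1. M0 and lesion libraries overlapped in every stage. PSMB8 differed from M0 by 0.67 ± 0.38 in M1, 0.21 ± 0.38 in M2, 0.77 ± 0.38 in M3, -0.096 ± 0.40 in M4 and 0.80 ± 0.39 in M4.1 and was called in no stage, with edgeR adjusted p of 0.151 in M1, 0.692 in M2, 0.108 in M3, 0.872 in M4 and 0.108 in M4.1. Its 95 percent intervals reached 1.51 in M3 and 1.56 in M4.1, so these data set no limit below that size. Single libraries decided the call here. Without M0 replicate 1, which had the highest PSMB8 of its group, the gene was called higher in M3 and M4.1, as it was in M3 without M3 replicate 5 and in M4.1 without M4.1 replicate 2.

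PSMB9 replaces PSMB6. PSMB9 (ENSBTAG00000008954) was measured at 17.6, 11.1, 9.34, 9.04 and 10.4 CPM in the M0 libraries. The earlier lesion groups held 22.3, 20.8, 18.5, 16.1 and 11.2 CPM in M1, 12.4, 13.3, 12.997, 25.4 and 15.7 in M2 and 14.05, 6.01, 17.6, 13.6 and 6.92 in M3. Later, the values were 5.19, 15.02, 13.5, 12.5 and 13.01 CPM in M4 and 16.2, 10.2, 17.6 and 21.8 in M4.1. All M1 libraries lay above all M0 libraries but replicate 1, at 17.6 CPM, and the groups overlapped in every stage. PSMB9 differed from M0 by 0.62 ± 0.29 in M1, 0.47 ± 0.29 in M2, 0.038 ± 0.29 in M3, 0.053 ± 0.29 in M4 and 0.51 ± 0.30 in M4.1, with edgeR adjusted p of 0.0802 in M1, 0.191 in M2, 0.936 in M3, 0.905 in M4 and 0.181 in M4.1. It was called higher in M1 without M0 replicate 1 or M1 replicate 5, and when M1 and M0 were fitted alone.

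PSMB10 replaces PSMB7. PSMB10 (ENSBTAG00000018040) held 5.44, 3.82, 6.44, 5.88 and 2.68 CPM in the M0 libraries. The first 3 lesion groups held 4.83, 3.499, 4.63, 7.57 and 2.39 CPM in M1, 1.74, 2.84, 6.74, 6.14 and 5.14 in M2 and 4.97, 3.55, 6.28, 1.47 and 2.31 in M3. M4 and M4.1 followed with 1.997, 2.403, 1.64, 3.85 and 1.98 CPM in M4 and 3.81, 2.704, 3.73 and 5.09 in M4.1. It was low in M4, where 4 of 5 libraries lay below the lowest M0 library at 2.68 CPM. PSMB10 fell in M4 by 0.99 on the log2 scale (standard error 0.39, edgeR adjusted p = 0.0431) and differed by -0.11 ± 0.36 in M1, -0.12 ± 0.36 in M2, -0.33 ± 0.37 in M3 and -0.34 ± 0.39 in M4.1 elsewhere. The M4 call was lost without any of M0 replicates 1, 3 and 4 or M4 replicates 1, 2, 3 and 5, and with limma-voom (adjusted p = 0.0932).

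PSME1 and PSME2 encode the subunits of the immunoproteasome cap. PSME1 (ENSBTAG00000021395) stood at 83.97, 80.3, 90.9, 80.2 and 73.7 CPM in the M0 libraries. Its lesion levels were 94.5, 90.5, 105, 107 and 102 CPM in M1, 99.2, 88.1, 99.6, 92.1 and 92.5 in M2 and 97.9, 102, 93.97, 69.99 and 78.9 in M3. Its chronic levels were 75.1, 84.1, 106, 92.5 and 65.1 CPM in M4 and 89.2, 85.2, 85.4 and 93.5 in M4.1. Groups overlapped in every stage. PSME1 rose in M1 by 0.29 ± 0.11 (edgeR adjusted p = 0.0426), a call lost with 8 of the 10 libraries left out in turn and when the counts were scaled by RLE size factors. In M2 to M4.1 it differed from M0 by 0.21 ± 0.11 in M2, 0.11 ± 0.11 in M3, 0.048 ± 0.11 in M4 and 0.11 ± 0.12 in M4.1.

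PSME2 (ENSBTAG00000005814) was measured at 39.2, 39.1, 40.5, 40.998 and 33.6 CPM in the M0 libraries. Values after M0 were 39.5, 31.9, 31.4, 29.95 and 43.7 CPM in M1, 35.01, 30.2, 35.6, 38.1 and 29.3 in M2 and 38.7, 37.1, 32.1, 29.5 and 17.1 in M3. M4 and M4.1 stood at 17.6, 27.03, 40.7, 24.3 and 24.9 CPM in M4 and 36.5, 39.6, 34.8 and 41.3 in M4.1. The M4 libraries spread from 17.6 to 40.7 CPM and overlapped M0. PSME2 fell in M4 by 0.52 (standard error 0.18, edgeR adjusted p = 0.0201). Without M4 replicate 1 the difference was -0.41 and was not called (adjusted p = 0.0683). Of 10 fits with 1 library left out, only that 1 ended the call. Without M4 replicate 3, the highest M4 library, the difference was -0.72 (edgeR adjusted p = 0.00162). In the other stages PSME2 differed by -0.13 ± 0.18 in M1, -0.20 ± 0.18 in M2, -0.31 ± 0.18 in M3 and -0.023 ± 0.19 in M4.1.

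**Figure D4:**
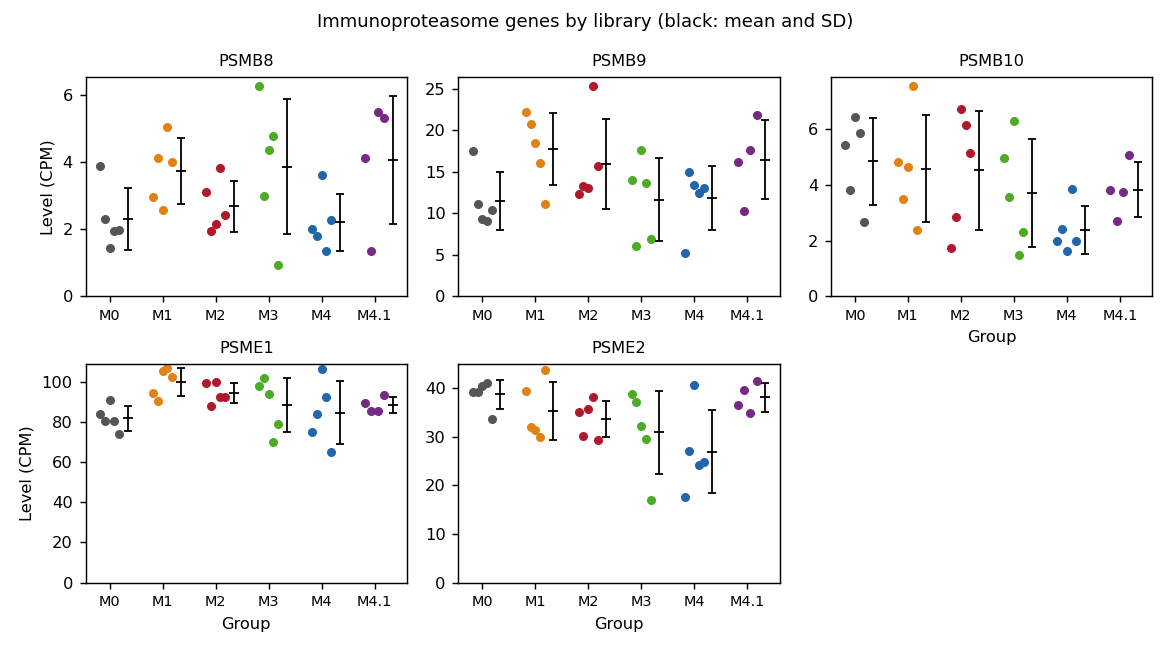
CPM per library (points), with group mean and SD (bars), of the immunoproteasome genes PSMB8, PSMB9, PSMB10, PSME1 and PSME2 in the 6 groups (n = 5, and 4 in M4.1). Lesion and M0 points overlap in every panel and stage, with PSMB8 between 0.923 and 6.27 CPM in the lesions.

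Leukocytes carry immunoproteasomes, and interferon raises these genes in other cells, so the markers of both are given here. Against M0, 20.2 to 21.9 percent of all genes tested rose and 18.9 to 21.1 percent fell. The counts of risen markers lay near or below that share, other than those of leukocytes in M2 and of interferon-induced genes in M4. Of 21 leukocyte markers 14 were measured, and 2 in M1, 5 in M2, 1 in M3, 1 in M4 and 3 in M4.1 rose, with 1 lower in M4. Their summed level was 217 to 493 CPM in M0, 255 to 532 in M1, 161 to 568 in M2, 219.8 to 364 in M3, 109.8 to 289 in M4 and 221 to 783 in M4.1. The M0 maximum was 1 library, replicate 1, and the other M0 libraries held 217 to 260 CPM. That library also held the highest PSMB8 and PSMB9 of M0. No measured leukocyte marker was at 0 in the mean of any group, and CORO1A, an actin regulator of blood cells, was called higher in all 5 stages (1.60 in M1, 1.56 in M2, 1.12 in M3 and 1.71 in M4.1, and near the M3 value in M4). The CORO1A calls in M3 and M4 were each lost in 2 fits with 1 library left out. Other markers went the other way. The median log2 fold change of the 14 was 0.69 in M1, 0.81 in M2, 0.34 in M3, -0.21 in M4 and 0.57 in M4.1. JCHAIN was the marker called lower in M4 (-1.45 ± 0.55). CD74 was called in no stage, but its mean was 93.0 CPM in M0 and 59.2 to 76.0 CPM in the lesion groups. Of 22 interferon-induced genes 13 were measured, and 1 in M1, 0 in M2, 3 in M3, 5 in M4 and 1 in M4.1 rose, with 1 lower in M4.1. Their summed level was 112 to 178 CPM in M0, 95.95 to 327 in M1, 97.2 to 224 in M2, 110.3 to 338 in M3, 111 to 1084 in M4 and 125 to 297 in M4.1. The M4 maximum was 1 library, replicate 3, and the other M4 libraries held 111 to 160.1 CPM. ISG15, an interferon-induced ubiquitin-like protein, was called higher in M4 (5.40 ± 1.27), but without that library it differed by 2.57 and was not called (edgeR adjusted p = 0.0569), nor was it with limma-voom (3.15, adjusted p = 0.105). Some genes of the interferon list went the other way. CXCL9 was the gene called lower in M4.1 (-2.55 ± 1.01), a call lost in 6 fits with 1 library left out. Its mean was 4.22 CPM in M0 and 0.677 to 2.44 CPM in the lesion groups. Mean IDO1 was 16.5 CPM in M0 and 2.98 to 9.85 CPM in the lesion groups, and IDO1 was called in no stage. The part of leukocytes and interferon in the immunoproteasome values was not tested.

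The balance of immunoproteasome and constitutive subunits was read as a log2 ratio of each pair within a library, with 0.5 CPM added to both. Such a ratio was compared only between groups, since the level of one gene against another depends on its 3′ end. For PSMB9 over PSMB6, the lowest, median and highest ratios were -4.14, -3.78 and -3.09 in M0 and -5.71, -4.39 and -4.12 in M4. The mean ratio minus that of M0 was 0.013 in M1, -0.15 in M2, -0.74 in M3, -0.90 in M4 and -0.070 in M4.1. Over 15 comparisons with M0, none passed after adjustment in the two-sided exact permutation test, which is no evidence of equal ratios. At these sample sizes a single comparison cannot pass alone, since its adjusted p cannot go below 0.119 (0.238 for M4.1). The lowest p were 0.0159 for PSMB9 over PSMB6 in M4 (adjusted 0.238) and 0.0397 for PSMB10 over PSMB7 in M4 (adjusted 0.298), by exact permutation. For the latter pair the difference was -0.055 in M1, -0.16 in M2, -0.56 in M3, -1.09 in M4 and -0.33 in M4.1, and for PSMB8 over PSMB5 it was 0.39 in M1, 0.094 in M2, 0.25 in M3, -0.35 in M4 and 0.49 in M4.1. With 5 against 5 libraries the smallest p of this exact test is 0.00794, and with 5 against 4 it is 0.0159.

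**Figure D5:**
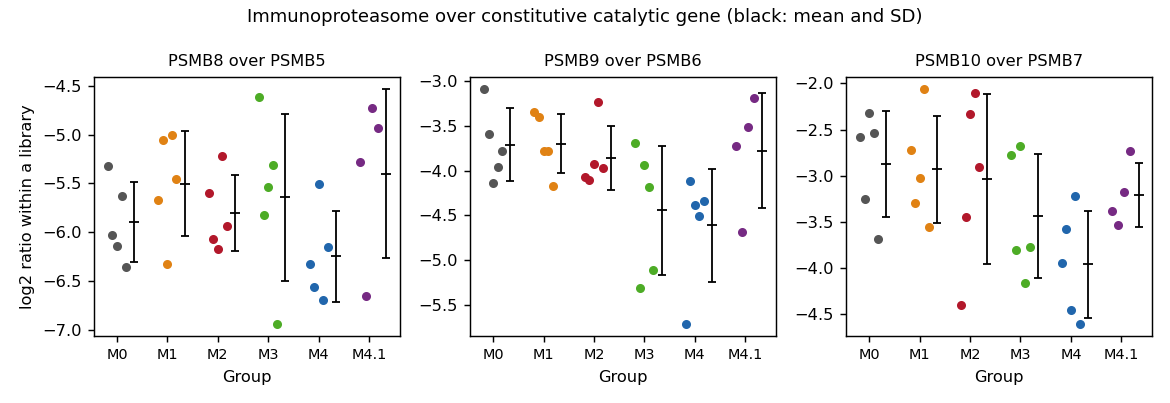
Log2 ratio of each immunoproteasome subunit to the constitutive subunit it replaces, per library (points), with group mean and SD (bars), in the 6 groups. The M4 ratios of PSMB9 to PSMB6, from -5.71 to -4.12, lie at the lower end of the M0 range or below it, where the M0 ratios run from -4.14 to -3.09.

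Between lesion stages no proteasome gene was called by edgeR. All 5 comparisons gave 0 calls among the 46 genes. An unadjusted p under 0.05 was seen for 0 genes between M1 and M2, 1 between M2 and M3, 3 between M3 and M4, 7 between M4 and M4.1 and 5 between M2 and M4. In the same order, 417, 923, 715, 2453 and 2430 of all 10371 genes had such a p in edgeR. That is a larger share than among the 46 in each comparison. The share of all genes called higher was 0.0 percent in the comparisons of M2 with M1, M3 with M2 and M4 with M3, 2.25 percent in M4.1 against M4 and 1.79 percent in M4 against M2, and the shares called lower were 2.05 and 1.32 percent in the last pair. In a joint test of differences among the 5 lesion stages, 0 of 46 were called by edgeR, 5 had an unadjusted p under 0.05, and 2.58 percent of all genes were called. No other tool called a member in the joint test, and DESeq2 called PSMB6 higher in M4 than in M2 (0.32, adjusted p = 0.0367), PSMB6 lower in M4.1 than in M4 (-0.34, adjusted p = 0.0365) and PSMC6 higher there (0.32, adjusted p = 0.0419).

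A pair of subunits of the regulatory particle carry other symbols and were read from a list of partners of the proteasome. SEM1, a small lid subunit, was measured at 246, 269, 234, 258 and 266 CPM in M0 and 329.9, 398, 296, 388 and 394 CPM in M4, and rose by 0.59 ± 0.10 in M1, 0.48 ± 0.10 in M2, 0.53 ± 0.10 in M3, 0.50 ± 0.10 in M4 and 0.54 ± 0.11 in M4.1. Its lesion libraries lay above all M0 libraries. ADRM1, a ubiquitin receptor of the base, was measured at 9.33, 14.5, 9.96, 9.04 and 12.5 CPM in M0 and 24.4, 16.8, 15.8, 18.1 and 16.1 CPM in M4, and rose by 0.54 ± 0.21 in M1, 0.58 ± 0.21 in M2, 0.60 ± 0.22 in M3 and 0.72 ± 0.22 in M4. In M4.1 it differed by 0.49 ± 0.23, not called, and the calls in M1 to M3 were each lost in 5 to 7 fits with 1 library left out. Both genes were picked from the list for their role, with all values known.

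Of 30 genes of that list, which holds the ubiquitin supply, shuttle proteins, deubiquitinases and transcription factors, 27 were measured. In M1, 10 rose and 2 fell, followed by 12 and 4 in M2, 11 and 2 in M3, 15 and 3 in M4, and 7 and 2 in M4.1. Of all genes tested, 20.2 to 21.9 percent rose and 18.9 to 21.1 percent fell in these comparisons. POMP, the chaperone that joins beta rings to the core and is needed for its maturation, rose in all stages.

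POMP (ENSBTAG00000014024) was measured at 390.2, 471, 411, 451 and 485 CPM in the M0 libraries. Early lesions held 779.7, 859, 825, 559.96 and 772 CPM in M1, 838, 829.6, 789.9, 838 and 768 in M2 and 714, 665, 776, 732 and 703 in M3. In the chronic stages they were 715, 746, 619, 816 and 636 CPM in M4 and 677, 809, 747 and 761 in M4.1. Its log2 fold changes were 0.78 ± 0.11 in M1, 0.88 ± 0.11 in M2, 0.70 ± 0.11 in M3, 0.68 ± 0.11 in M4 and 0.76 ± 0.11 in M4.1, with no overlap between M0 and lesion libraries. UBA1, the main enzyme that activates ubiquitin, rose by 0.64 ± 0.13 in M1, 0.78 ± 0.13 in M2, 0.85 ± 0.13 in M3, 1.28 ± 0.13 in M4 and 0.92 ± 0.13 in M4.1. USP14, a deubiquitinase bound to the regulatory particle, rose by 0.90 ± 0.15 in M1, 0.95 ± 0.15 in M2, 0.78 ± 0.16 in M3, 0.56 ± 0.16 in M4 and 0.88 ± 0.16 in M4.1. AKIRIN2, a factor for the import of proteasomes into the nucleus, rose by 0.88 ± 0.13 in M1, 0.92 ± 0.13 in M2, 0.68 ± 0.13 in M3, 0.87 ± 0.13 in M4 and 0.60 ± 0.13 in M4.1.

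NFE2L1, a transcription factor that raises proteasome genes when proteasome activity is short, fell in every lesion group. NFE2L1 (ENSBTAG00000013653) stood at 356, 334, 371, 306 and 326 CPM in the M0 libraries. Its levels were 166, 178, 168, 272 and 188 CPM in M1, 186, 207, 226, 183 and 196 in M2 and 212, 227, 214, 172 and 245 in M3. M4 and M4.1 libraries held 219, 196, 198, 204 and 233 CPM in M4 and 229, 201, 213 and 202 in M4.1. All lesion libraries were below all M0 libraries, and the log2 fold changes were -0.80 ± 0.12 in M1, -0.76 ± 0.12 in M2, -0.66 ± 0.12 in M3, -0.69 ± 0.12 in M4 and -0.68 ± 0.13 in M4.1. Its activity is set largely after translation in mammals, which mRNA does not show.

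Of 15 genes for MHC class I processing and presentation 14 were measured, and 3 in M1, 3 in M2, 3 in M3, 2 in M4 and 3 in M4.1 rose. These counts lie near or below the share of all genes, of which 21.9, 21.7, 20.4, 21.3 and 20.2 percent rose. No measured gene of the list was lower at an adjusted or an unadjusted p under 0.05 in edgeR. TAP1, which carries peptides into the endoplasmic reticulum and lies between PSMB8 and PSMB9 in the RefSeq annotation of ARS-UCD2.0, was measured at 20.1, 15.1, 13.7, 14.3 and 18.6 CPM in M0 and 26.03, 30.3, 28.5, 36.9 and 32.9 CPM in M1. TAP1 rose by 0.92 ± 0.20 in M1, 0.82 ± 0.20 in M2, 0.73 ± 0.20 in M3 and 0.71 ± 0.21 in M4.1, and in M4 it differed by 0.46 ± 0.21 and was not called. PDIA3 and CALR, chaperones that load MHC class I and fold other proteins too, made up the other rises, by 0.93 in M1, 0.91 in M2, 0.74 in M3, 0.69 in M4 and 0.87 in M4.1 for PDIA3 and by 0.81 in M1, 0.78 in M2, 0.82 in M3, 0.52 in M4 and 0.94 in M4.1 for CALR. The CALR call in M4 was lost without M4 replicate 2 (0.35). B2M, the light chain of MHC class I, differed by 0.068 in M1, 0.12 in M2, -0.19 in M3, -0.27 in M4 and 0.0054 in M4.1 and was not called.

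PSMC3IP, which is no proteasome gene, was called higher in M4 (0.89 ± 0.28, edgeR adjusted p = 0.0102) and in no other stage.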

How the data were processed

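Groups were read from the sample labels, 5 libraries each in M0, M1, M2, M3 and M4 and 4 in M4.1. The submitters' processing notes name STAR, edgeR, RSEM 1.3.1, cutadapt 2.8, FastQC 0.11.7 and, as genome build, ARS-UCD1.2. The versions of STAR and edgeR, the strand setting and the treatment of reads shared by similar genes are not given in the sources used here. The authors deposited 5 tables, each of 1 stage with the M0 libraries, that hold whole-number counts per gene and, per the file headers, a normalized signal in CPM per library and p-values of their own test. The sources used here do not say how RSEM estimates became whole numbers. The deposited signal and p-values were not used. No column was left unmapped.

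The 10629 genes listed in all 5 tables were joined on the counts, with M0 used once. Genes were filtered with filterByExpr, TMM factors computed (0.631 to 1.29), and 1 quasi-likelihood model with a coefficient per group was fitted to all 29 libraries in edgeR 4.0.16 (R 4.3.3). Standard errors are the absolute log2 fold change over the square root of F. Scripts were tested on simulated data. Ratios used log2(CPM + 0.5) and a two-sided exact permutation test in scipy 1.17.1. Alternatives were RLE size factors, other filters on low counts, a replicate block, the compared groups alone, a robust fit, limma-voom (limma 3.58.1), DESeq2 1.42.0, a test against a fold change of 1.5, a pseudocount of 2 and leaving out each library. For genes outside the 47 these were chosen after seeing the data.

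Genes named by rule were the 5 immunoproteasome and 3 constitutive catalytic genes in every comparison, in each comparison with M0 the called members with the 4 greatest rises and 4 greatest falls, and up to 3 called genes per direction of each other list. One gene that this rule names is not reported here. The other members are named to complete their role, after their values were seen. The members and lists were chosen with earlier results of these data known. Depth, 2858186 to 5399615 counts, limits genes of a few CPM. Promoter and protein sequences were not used here. Gene neighbours came from the RefSeq table of ARS-UCD2.0, in which 47 of 47 members matched. Figures were drawn with matplotlib 3.10.9.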

Additional observations from a re-analysis of the deposited data

Results flagged for a closer look

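Within-group gaps were tested for 16 genes and 3 ratios in groups of 4 or 5 libraries, 114 groups in all, and 8 had a highest or lowest library far from the others by Dixon's criterion. Chance alone flags about 1 in 20 such groups. The part of any cause in these values was not tested.

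PSMB9, the immunoproteasome counterpart of PSMB6, stood out most often. M0 replicate 1 held 17.6 CPM where the other M0 libraries held 9.04 to 11.1 CPM, and M2 replicate 4 held 25.4 CPM where the others held 12.4 to 15.7. M4 replicate 1 was low at 5.19 CPM, with the others at 12.5 to 15.02. The log2 ratio of PSMB9 to PSMB6 followed, at -3.23 in M2 replicate 4 (others -4.11 to -3.93) and -5.71 in M4 replicate 1 (others -4.51 to -4.12).

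PSMB6 was low in M3 replicate 1, at 188 CPM with the others at 255 to 277 CPM. PSMB7 was high in M4.1 replicate 1, at 44.4 CPM with the others at 36.5 to 37.8. PSME2 was low in M0 replicate 5, at 33.6 CPM with the others at 39.1 to 41.0.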

How the results depend on the processing

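The counts of calls in the 5 comparisons with M0 changed most with the size of change tested. Against a fold change of 1.5, the genes called higher numbered 2 in M1, 1 in M2, 1 in M3, 3 in M4 and 1 in M4.1, and 0 were called lower in each. The genes called lower in M1 were 2 with RLE size factors, a minimum of 10 counts, limma-voom or DESeq2, which added PSMA6. In M2 they were 2 with RLE size factors, that minimum or DESeq2, which added PSMD7. In M3 they were 1 with no filter, the replicate block, the robust fit or the compared groups alone. In M4 they were 6 with RLE size factors, the minimum of 10 counts or DESeq2, which added PSMA6, and 4 with no filter. In M4.1 they were 3 with RLE size factors, that minimum, DESeq2, the replicate block or the compared groups alone, which added PSMC3. DESeq2 gave 1 call higher and 1 lower in M4.1 against M4 and 1 higher in M4 against M2. With 1 library left out, genes called higher ranged from 10 to 16 in M1, 10 to 15 in M2, 8 to 18 in M3, 13 to 15 in M4 and 9 to 13 in M4.1. Low counts in M1 and M3 came without M0 replicate 4 (10 in M1 and 8 in M3), M1 replicate 1 (10) and M3 replicate 3 (9). In M2 the lowest count, 10, came without M0 replicate 1 or 4. In M4.1 the lowest, 9, came without M0 replicate 2, 4 or 5. Genes called lower ranged from 1 to 2 in M1, M2 and M3, 2 to 5 in M4 and 1 to 3 in M4.1. The M4 count was 2 without M4 replicate 1 and 3 without M0 replicate 3, M4 replicate 2 or M4 replicate 5. The M4.1 count was 1 without M0 replicate 3, M4.1 replicate 2 or M4.1 replicate 3. In M4.1 against M4, leaving out M4 replicate 2 gave 1 call higher (PSMG2, 0.66) and leaving out M4.1 replicate 2 gave 1 lower (PSMB6, -0.44), each from 0 to 1.

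Values that changed sign with another setting were near 0. PSMB7 in M2 was -0.026 with RLE size factors, -0.025 with a minimum of 10 counts, -0.0094 with limma-voom, -0.027 with DESeq2 and -0.010 with the compared groups alone, and PSMB9 in M3 was -0.0060 with the replicate block. The ratio of PSMB9 to PSMB6 in M1 was -0.041 with a pseudocount of 2. Values that changed sign with 1 library left out were not all near 0. Among them, the difference in the ratio of PSMB8 to PSMB5 in M3 was 0.25 with all libraries. With 1 library left out, PSMB10 ranged from -0.35 to 0.063 in M1 and -0.33 to 0.072 in M2, PSMB5 from -0.026 to 0.15 in M2 and -0.014 to 0.16 in M4.1, and PSMB7 from -0.10 to 0.10 in M2 and -0.012 to 0.085 in M4.1. PSMB9 ranged from -0.18 to 0.22 in M3 and -0.054 to 0.24 in M4, PSMB8 from -0.34 to 0.15 in M4, PSME1 from -0.046 to 0.13 in M4 and PSME2 from -0.093 to 0.0011 in M4.1. The ratio of PSMB8 to PSMB5 ranged from -0.052 to 0.24 in M2 and -0.0092 to 0.57 in M3, that of PSMB9 to PSMB6 from -0.095 to 0.17 in M1, -0.31 to 0.0053 in M2 and -0.26 to 0.23 in M4.1, and that of PSMB10 to PSMB7 from -0.27 to 0.10 in M1 and -0.39 to 0.18 in M2. The cause of these changes was not tested.

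With the replicate number as a block, 15, 14, 14, 14 and 10 genes were called higher and 1, 1, 1, 5 and 3 lower in M1 to M4.1. The labels do not say that the numbers pair samples, and the deviations of same-numbered libraries had a median correlation of -0.013, with 17 of 70 pairs over 0.1. RLE size factors moved the median of all genes by -0.035 to -0.021. Depth limits PSMB8, PSMB10, PSMD4 and PSMD10, which had a few counts per library.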

Other observations

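Other cell type lists were counted beside the proteasome genes. Of 6 fibroblast genes, 1 in M1, 4 in M2, 3 in M3, 1 in M4 and 3 in M4.1 rose against M0, and 1 in M3 and 2 in M4 fell. Of all genes tested, 20.2 to 21.9 percent rose and 18.9 to 21.1 percent fell. The summed fibroblast level was 812 to 4680.2 CPM in M0, 2631 to 4162 in M1, 3732 to 5401 in M2, 1760.02 to 8795 in M3, 1902 to 3176 in M4 and 2641 to 5932 in M4.1. COL3A1, a fibrillar collagen, rose by 1.60 ± 0.41 in M2, while DCN, a proteoglycan of the dermis, differed from M0 by -1.16 ± 0.33 in M4.

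Between M4.1 and M4, where no proteasome gene was called by edgeR, 5 of 13 hair follicle and gland markers were higher in M4.1 and 3 of 10 keratinocyte markers lower, and 1 of 14 leukocyte markers was higher. There, 2.25 percent of all genes were called higher and 2.05 percent lower. In M4 against M2, 2 keratinocyte markers were higher, 1 gland or hair marker was lower, 1 of 13 interferon-induced genes and 1 of 27 proteasome partners were higher. For that pair, 1.79 percent of all genes were called higher and 1.32 percent lower.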
